A study of Homo sapiens with 21 samples.

Results

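DRIP-seq peaks were compared before and after RNase in breast cancer cells depleted of RNF8. The comparison took the 8 shRNF8 peak lists among the 21 samples of the series, namely 4 libraries made with the S9.6 antibody and 4 made with the same antibody after RNase. The comparison covers chromosomes 1 to 22 and X. All cells were MDA-MB-436, an established triple-negative breast cancer line with a mutant BRCA1 gene, transduced with a lentiviral, doxycycline-inducible hairpin. The labels name 1 hairpin against RNF8 and no rescue, and they give no dose or duration of doxycycline. Control cells carried the scrambled hairpin shScr and gave 2 S9.6 libraries and 2 RNase libraries. RNA-seq of the same cells, with 3 shRNF8 libraries, gave RNA levels. The labels do not say whether replicates are separate cultures, so p-values measure the spread between these libraries, which may be technical.

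An R-loop forms when an RNA strand pairs with its DNA template and the other DNA strand is left unpaired. R-loops are best known at the starts and ends of transcribed genes, and the S9.6 antibody, which binds DNA-RNA hybrids, pulls down the DNA they hold. The antibody can also bind other nucleic acids, and treating a sample with RNase before the pull-down is the usual control for what depends on a hybrid. Of the RNase itself the labels give a short code, which is not interpreted here. RNF8 is a ubiquitin ligase that acts with the ligase RNF168 at DNA breaks, and the series title links it to XRN2, an exonuclease of transcription termination.

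Promoter sequences of 4 genes are given as examples of start peaks lost or kept after RNase. They are RefSeq sequences of build GRCh38.p14, read on the gene's strand from 250 bases before to 50 after the annotated start. HNRNPF (chr10:43408808-43409107, minus strand), which encodes a splicing factor, lost its start peak. NPM1 (chr5:171387599-171387898, plus strand), which encodes a nucleolar chaperone, lost it too. In these sequences the capitals span the summits of the S9.6 peaks, from 4 libraries for HNRNPF and from 3 for NPM1. The starts in RefSeq and in the deposited gene table differ by up to 391 bp among these genes. HNRNPF was chosen after its values were seen, for having all 4 summits in the printed window.
HNRNPF: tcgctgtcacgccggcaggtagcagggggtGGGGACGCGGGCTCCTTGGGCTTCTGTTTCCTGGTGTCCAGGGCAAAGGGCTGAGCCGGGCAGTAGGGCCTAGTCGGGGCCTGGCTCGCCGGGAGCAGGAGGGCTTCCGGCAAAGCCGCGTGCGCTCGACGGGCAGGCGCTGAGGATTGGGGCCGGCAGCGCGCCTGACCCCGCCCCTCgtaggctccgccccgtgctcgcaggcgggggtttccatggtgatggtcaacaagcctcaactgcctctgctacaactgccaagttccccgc
NPM1: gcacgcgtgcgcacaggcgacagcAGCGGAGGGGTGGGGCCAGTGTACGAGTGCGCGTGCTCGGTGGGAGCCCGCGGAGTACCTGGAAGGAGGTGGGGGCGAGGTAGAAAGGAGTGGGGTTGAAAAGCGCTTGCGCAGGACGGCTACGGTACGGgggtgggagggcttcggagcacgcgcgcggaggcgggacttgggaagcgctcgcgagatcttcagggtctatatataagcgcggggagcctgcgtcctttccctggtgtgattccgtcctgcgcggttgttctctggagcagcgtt
DAND5 (chr19:12969326-12969625, plus strand), a secreted inhibitor of Nodal and BMP signals, and EEF1A1 (chr6:73520983-73521282, minus strand), a translation elongation factor, had a start peak after RNase in 2 libraries each. Capitals mark the bases that lie under RNase peaks of 3 libraries for DAND5 and of 2 for EEF1A1.
DAND5: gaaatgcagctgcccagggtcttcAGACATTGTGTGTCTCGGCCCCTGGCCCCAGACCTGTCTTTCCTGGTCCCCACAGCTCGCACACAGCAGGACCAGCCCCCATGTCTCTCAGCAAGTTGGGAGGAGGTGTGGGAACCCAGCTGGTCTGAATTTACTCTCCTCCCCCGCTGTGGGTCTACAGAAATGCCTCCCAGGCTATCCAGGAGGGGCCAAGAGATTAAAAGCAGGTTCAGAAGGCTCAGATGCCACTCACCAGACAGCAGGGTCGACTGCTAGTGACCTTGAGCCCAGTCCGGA
EEF1A1: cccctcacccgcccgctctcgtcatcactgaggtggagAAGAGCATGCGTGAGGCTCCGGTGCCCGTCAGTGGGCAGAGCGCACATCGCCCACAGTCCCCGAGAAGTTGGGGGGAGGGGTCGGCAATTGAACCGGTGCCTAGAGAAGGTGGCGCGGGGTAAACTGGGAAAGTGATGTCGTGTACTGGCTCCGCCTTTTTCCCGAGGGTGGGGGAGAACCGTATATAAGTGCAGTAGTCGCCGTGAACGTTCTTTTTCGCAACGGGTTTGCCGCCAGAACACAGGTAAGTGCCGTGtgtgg

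RNF8 RNA was at 5.03, 5.05 and 4.86 RPKM in the 3 shScr and at 1.63, 1.74 and 1.39 RPKM in the 3 shRNF8 RNA libraries, which did not overlap. By the measure of depth used here, each RNase library lay below the S9.6 library of the same number. The fold and p-value of a peak fix its whole-number pileup, and the lowest local background shared by peaks of a list served as a measure of depth. It was 0.698, 0.948, 1.36 and 1.48 reads in S9.6 replicates 1 to 4 and 0.316, 0.444, 0.706 and 0.620 reads in RNase replicates 1 to 4. The ranges overlapped (two-sided exact permutation p = 0.0571), and the ratio within a number was 1.93 to 2.38. The lowest deposited −log10 p was 3.62 to 3.99 in the S9.6 lists and 5.19 to 6.19 in the RNase lists, so a peak called lost is a peak that was not called after RNase. Libraries 3 and 4 stood apart from 1 and 2: S9.6 lists 3 and 4 held more and wider peaks, and RNase lists 3 and 4 shared places of very high fold that are described below. VIM (503 RPKM) and CD44 (85.2 RPKM), markers of mesenchymal breast cancer cells, were expressed, while the basal keratins KRT5 and KRT14 were at 0 RPKM. Of luminal markers ESR1 and TFF1 were at 0 RPKM, and KRT8 (304 RPKM), KRT18 (216 RPKM) and XBP1 (37.3 RPKM) were expressed. Of 12 immune, fibroblast and endothelial markers 11 were under 1 RPKM, with CD68 at 78.2 RPKM.

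Nearly all peaks were absent after RNase. S9.6 replicates 1 to 4 held 32358, 34103, 50963 and 48546 peaks. RNase replicates 1 to 4 held 254, 419, 1912 and 692 peaks. Every RNase list was shorter than every S9.6 list, with means of 41493 ± 9617 and 819 ± 751 peaks (SD, n = 4 each), a 50.6-fold difference (two-sided exact permutation p = 0.0286, the smallest that 4 against 4 libraries allow). With libraries of the same number paired, the exact p was 0.125, the smallest that 4 pairs allow, here and in the 8 tests of covered length, width, fold and position class that follow. Scaled to 1 depth and 1 p-value threshold, a setting chosen after the data were seen, the lists held 2323 to 8289 and 253 to 432 peaks, a 15.3-fold difference (exact p = 0.0286). Peaks covered 39.5, 34.4, 83.5 and 79.0 Mb before RNase and 0.213, 0.320, 1.77 and 0.682 Mb after it, a 79.1-fold difference in means (exact p = 0.0286). RNase replicate 3 held most of what was left, and without it the differences were 91.2-fold for peaks and 146-fold for covered length.

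**Figure D1:**
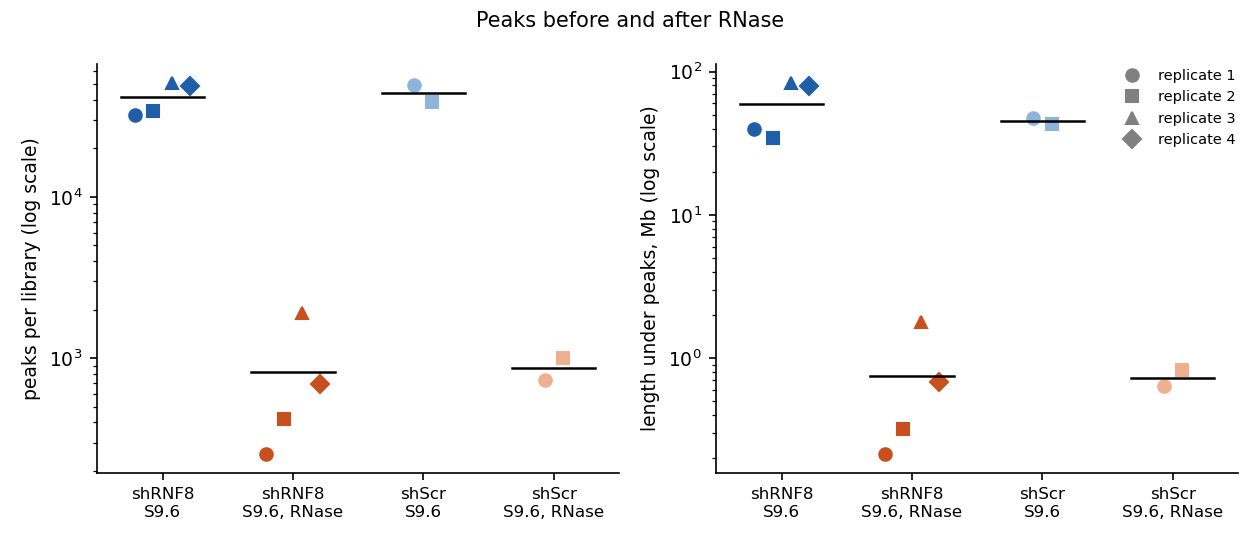
Number of peaks (left) and length under peaks in Mb (right) of each DRIP library on log axes, with the mean of each group as a line and the replicate number as the symbol. Every RNase library lies below every S9.6 library, with 254 to 1912 against 32358 to 50963 peaks in shRNF8 cells.

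The peaks left after RNase were narrower. Median widths were 599, 539, 656 and 654 bp before and 454, 434, 462 and 509.5 bp after RNase, a difference of -147 bp in the group means (exact p = 0.0286). With all scaffolds it was -128.5 bp, and there and without any 1 of the RNase libraries the exact p was 0.0571. The median fold of a peak over its local background, the authors' value, was 5.56, 5.13, 4.66 and 4.44 before and 7.31, 6.93, 5.88 and 6.79 after RNase, 1.78 higher (exact p = 0.0286, and 0.0571 without S9.6 replicate 2, 3 or 4). This order depends on the length of the lists. Among as many S9.6 peaks as the RNase list of the same number held, taken by −log10 p, the S9.6 mean of the median folds was 21.8 against 6.73 after RNase, so the direction turned.

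A larger share of the peaks left after RNase was intergenic, and smaller shares lay at gene starts, gene ends, exons and introns. A summit within 1000 bp of a gene start counted as a gene start, one from 1000 bp before to 5000 bp after a gene's last base as a gene end, and the rest as exon, intron or intergenic, in this order. Gene starts held 16.4, 15.2, 11.1 and 10.5% of the S9.6 peaks and 1.18, 3.34, 3.82 and 2.75% of the RNase peaks. Gene ends held 19.3, 19.98, 16.3 and 16.7% before and 3.54, 6.68, 9.31 and 7.803% after RNase. Both shares fell without overlap of the groups, by 10.5 and 11.2 percentage points in the means (exact p = 0.0286 each, adjusted over the 5 classes).

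Exons held 9.31, 10.9, 7.37 and 6.90% of the S9.6 peaks and 4.72, 3.34, 4.13 and 3.61% of the RNase peaks. Introns held 46.5, 44.9, 54.2 and 54.9% before and 20.9, 31.0, 40.1 and 30.5% after RNase. Intergenic sequence held 8.46, 9.03, 11.1 and 11.004% before and 69.7, 55.6, 42.6 and 55.3% after RNase, 45.9 percentage points higher in the mean (adjusted exact p = 0.0286, as for exons and introns). The shift from introns was not seen among the strongest peaks: in S9.6 lists shortened to the length of the RNase lists, introns held 21.97% against 30.6% after RNase (adjusted exact p = 0.20). With matched depth introns differed by -7.56 percentage points, which missed the threshold (adjusted exact p = 0.0571), as it did without any 1 of the S9.6 libraries. The share of peaks in the outer 5 Mb of a chromosome was 28.2, 31.0, 22.5 and 22.7% before and 30.7, 44.2, 39.0 and 33.8% after RNase. These ranges overlapped (exact p = 0.0571).

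**Figure D2:**
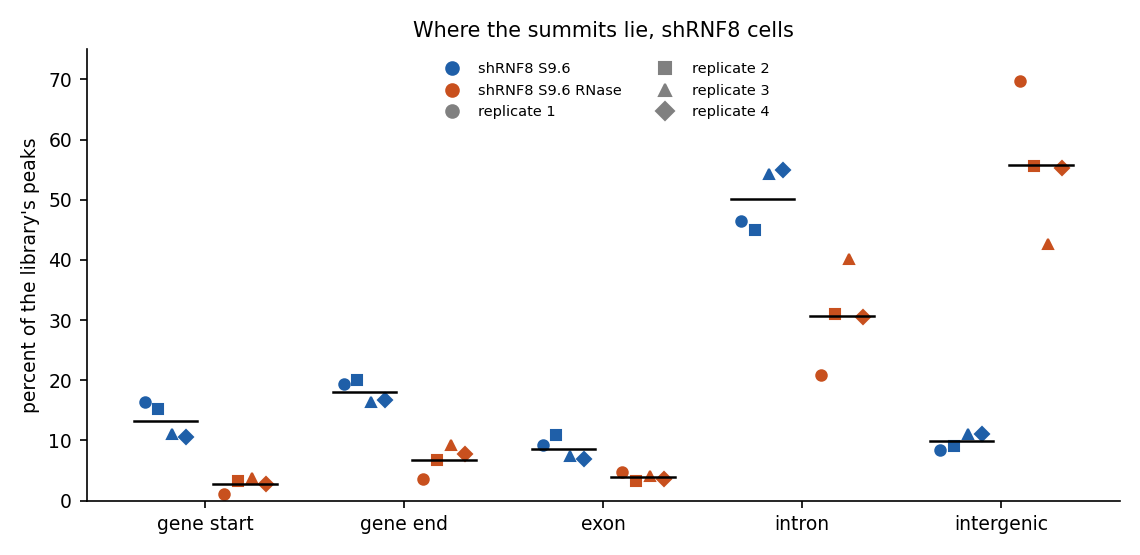
Percent of each shRNF8 library's peaks whose summit lies in each of 5 position classes, for S9.6 and S9.6 after RNase, with group means as lines and replicate numbers as symbols. Intergenic summits are 8.46 to 11.1% before and 42.6 to 69.7% after RNase.

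Few S9.6 peaks had a counterpart after RNase. The RNase library of the same number held a peak at 115 of 32358, 219 of 34103, 633 of 50963 and 259 of 48546 S9.6 peaks (0.355, 0.642, 1.24 and 0.534%; mean 0.693 ± 0.384%, n = 4). Replicate 3 had the highest share. The mean was 1.15% with matched depth, 1.67% against any of the 4 RNase lists and 0.317% with summits within 300 bp. Intergenic S9.6 peaks were kept at 2.57 ± 0.438%, while peaks at gene starts were kept at 0.354 ± 0.344%, at gene ends at 0.441 ± 0.383%, in exons at 0.579 ± 0.577% and in introns at 0.541 ± 0.352%. In each of the 4 pairs the intergenic share was the highest of the 5 classes. Stronger peaks were kept more often: with each list cut by fold into 5 equal parts, the lowest was kept at 0.344 ± 0.228% and the highest at 1.58 ± 1.01%. The median S9.6 fold was 7.21, 6.67, 6.33 and 5.25 for kept and 5.54, 5.13, 4.66 and 4.44 for other S9.6 peaks of replicates 1 to 4, and the median widths were 910, 848, 1590 and 1088 bp against 598, 538, 652 and 653 bp. By these medians kept peaks were the stronger and wider ones in every pair. The rule of 1 shared bp itself favours wide peaks, and the parts of width and fold were not separated. Peaks in the outer 5 Mb of a chromosome were kept at 1.27 ± 0.837%, against 0.5004 ± 0.266% elsewhere.

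**Figure D3:**
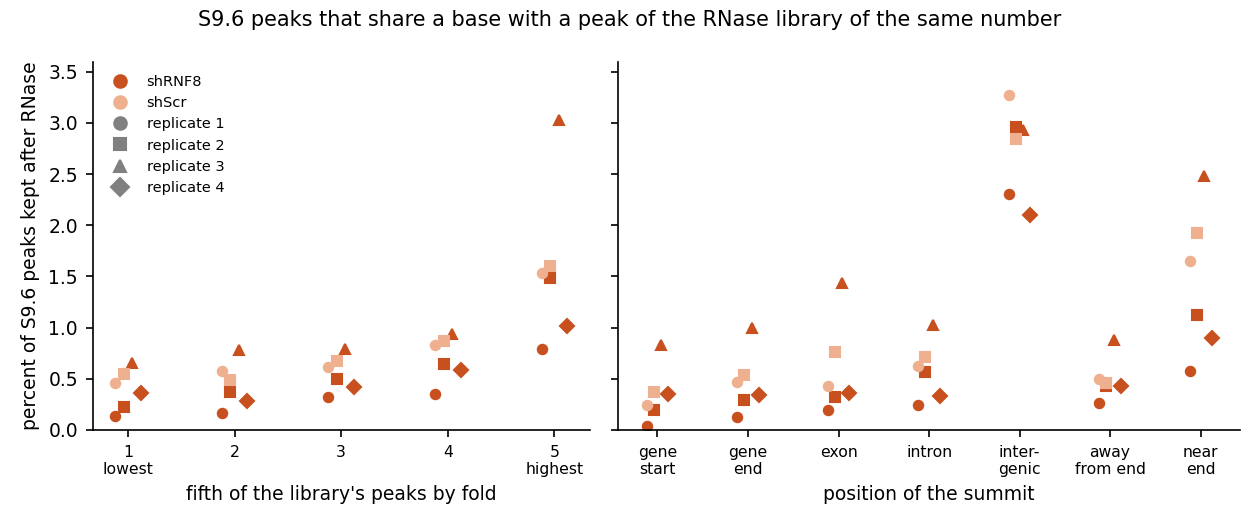
Percent of S9.6 peaks that share at least 1 bp with a peak of the RNase library of the same number, with the library's peaks cut by fold into 5 equal parts (left) and by position of the summit (right). Each symbol is 1 pair of libraries, 4 of shRNF8 and 2 of shScr cells, and the intergenic class is at 2.097 to 2.96% in the 4 shRNF8 pairs.

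Seen from the other side, 114 of 254, 219 of 419, 788 of 1912 and 290 of 692 RNase peaks met an S9.6 peak of the same number (44.9, 52.3, 41.2 and 41.9%; mean 45.1 ± 5.06%, n = 4). Of the RNase peaks at gene starts 85.9 ± 13.1% met one, and of those in intergenic sequence 26.2 ± 5.46% did. With any of the 4 S9.6 lists, the shares of all RNase peaks were 57.5, 66.3, 51.6 and 57.5%. With matched depth the mean share at the S9.6 peaks of the same number was 19.6%, and with summits within 300 bp it was 20.9%. In shScr cells 0.804 and 0.836% of S9.6 peaks were kept, and 52.3 and 35.1% of RNase peaks met an S9.6 peak. Neither share differed from shRNF8 cells beyond the spread (differences of -0.126 and 1.39 percentage points, two-sided exact permutation p = 0.667 and 0.933 with 4 against 2 pairs, where the smallest p is 0.0667).

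Merging peaks of the 8 libraries that shared at least 1 bp gave 64874 regions. Of these, 9265 were lost after RNase (14.3%), with a peak in all 4 S9.6 and in no RNase library. Another 201 had a peak in all 4 S9.6 libraries and in 1 RNase library. Kept regions, with a peak in all 4 S9.6 and in at least 2 RNase libraries, numbered 134 (0.207%), and 39 of them had a peak in all 8 libraries. A further 183 regions (0.282%) had a peak in at least 2 RNase and in no S9.6 library, and 19 (0.0293%) in all 4 RNase and no S9.6 library. Without RNase replicate 3 there were 68 kept regions and 76 found only after RNase, and without RNase replicate 4 there were 87 and 84. With RNase libraries 1 and 2 only, there were 48 and 43. The count of lost regions was 9499 then. It was far smaller with matched depth (1438 lost, 27 kept), with summits within 300 bp in place of overlap (2803 lost, 27 kept) and with −log10 q of at least 5 (6149 lost, 74 kept).

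The 3 kinds of region differed in position, in the control cells and in width. Median widths were 3699 bp for lost, 7542 bp for kept-in-1, 6409.5 bp for kept and 1089 bp for only-after-RNase regions. A wider region meets a gene or a control peak more easily, and the part of width was not tested. The shares below were not computed over all merged regions. A gene overlapped 91.2% of lost, 80.6% of kept and 18.03% of only-after-RNase regions. Of the lost regions 30.1% lay in the outer 5 Mb of a chromosome, as did 55.2% of the kept and 19.1% of the only-after-RNase regions. Libraries of shScr cells, which the sorting did not use, held an RNase peak at 0.799% of the lost, 17.9% of the kept-in-1, 73.1% of the kept and 43.7% of the only-after-RNase regions. Chromosome 19 held most of any chromosome among both the lost (1119 of 9265, 12.1%) and the kept regions (25 of 134, 18.7%). Chromosome 17 did so among the only-after-RNase regions (51 of 183, 27.9%) and held 7.40% of the lost regions. The share of all merged regions on each chromosome was not computed, so these counts do not show enrichment.

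The 5 lost regions of the highest fold lay over genes, 4 of them over several neighbouring genes. At TPPP (chr5:668386-678314), which encodes a tubulin polymerization protein, the highest peak folds were 64.0, 47.2, 67.5 and 60.7 in the S9.6 libraries (59.8 ± 8.87, n = 4). From CLDN6 to MMP25 (chr16:3016887-3052042) they were 74.2, 46.7, 68.4 and 35.4. From TNFSF12 to FXR2 (chr17:7554641-7597605) they were 76.1, 37.8, 44.3 and 40.6, from ZNF580 to U2AF2 (chr19:55634524-55665270) 73.1, 46.2, 29.0 and 36.7, and over FLNA and EMD (chrX:154346887-154385153) 63.4, 30.9, 49.0 and 29.5. No RNase library of either hairpin had a peak in these 5 regions, and both shScr S9.6 libraries had one in each.

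By gene, 25963 loci were examined from 1000 bp before the start to the end. A summit was found in all 4 S9.6 libraries at 6065 genes. Of these, 5774 had no RNase peak and count as lost (22.2% of all loci), 198 had one in 1 RNase library, and 93 in at least 2 (0.358%), which count as kept. The kept genes had RNase peaks in 4 libraries for 18 genes, in 3 for 25 and in 2 for 50. The RNase summit of a kept gene need not lie where its S9.6 summit lay. With RNase libraries 1 and 2 only, 20 genes were kept and 5994 lost, and 43 were kept without RNase replicate 3 and 58 without replicate 4. With matched depth 1116 genes were lost and 18 kept, and with −log10 q of at least 5, 46 were kept. No gene had a peak in all 4 RNase and in no S9.6 library.

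The lost genes with the strongest start peaks included several with abundant RNA, such as NPM1 (1575 RPKM) and MAGEA4 (487 RPKM). EIF4A1, a translation initiation helicase, had folds of 76.1, 37.8, 44.3 and 40.6, with the first library far above the rest. The folds of CCDC85B, a coiled-coil protein gene, were 52.6, 30.8, 33.7 and 32.5. Those of NPM1 were 51.3, 30.3, 32.9 and 25.7. The microRNA gene MIR3912 lies upstream of NPM1 and has the same summits, so the values of both come from 1 peak.

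GADD45A, a growth arrest gene induced by DNA damage, had folds of 46.3, 27.2, 36.1 and 24.6. At APRT, an enzyme of purine salvage, they were 51.9, 34.3, 25.03 and 17.6. AKAP8, a nuclear anchoring protein, had 34.4, 22.3, 35.1 and 31.1. SLC25A1, the mitochondrial citrate carrier, had 38.9, 28.2, 31.9 and 22.2. MAGEA4, a cancer-testis antigen on the X chromosome, had start folds of 21.2, 22.6, 40.7 and 35.3, and over the whole gene the highest were 44.5, 27.4, 40.7 and 35.3. C19orf71 (60.6, 35.0, 30.5 and 24.3) and SNORD35A (53.6, 25.2, 29.2 and 16.9), a small nucleolar RNA inside RPL13A and under the same peak, complete the 11 genes given here. None had a peak in an RNase library of either hairpin.

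**Figure D4:**
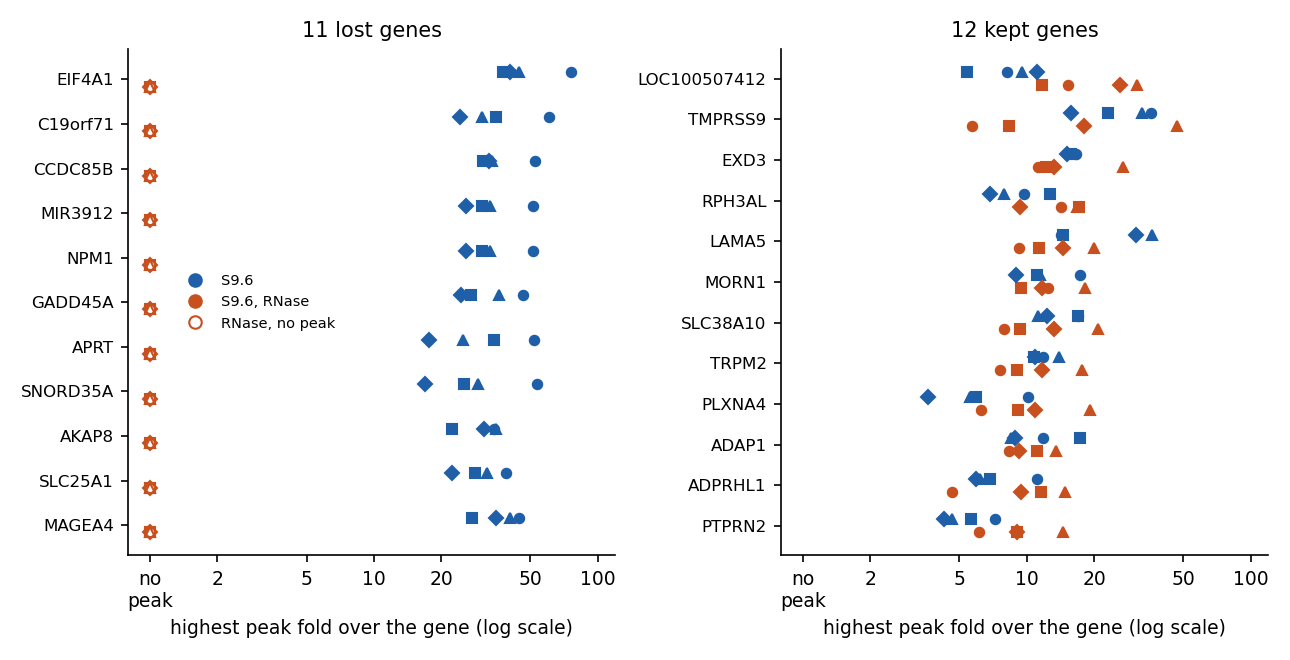
Highest peak fold over the gene in each shRNF8 library on a log axis, for 11 of the lost genes with the strongest start peaks (left) and 12 of the 18 kept genes with peaks in all 4 RNase libraries (right). Open symbols at the left edge are libraries with no peak; the 12 shown have RNase folds of 4.66 to 46.9.

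The same loss held in most gene groups. All 37 of the 83 ribosomal protein genes with a peak in all 4 S9.6 libraries were lost, such as RPL13A (53.6, 25.2, 29.2 and 16.9) and RPL8 (57.5, 30.2, 17.2 and 8.99). So were all 13 such genes among 25 immediate-early genes, which answer growth signals within minutes, among them JUNB (26.6, 23.7, 28.0 and 24.9) and EGR1 (15.7, 28.1, 26.1 and 18.6). All 20 of 24 SR and hnRNP splicing factor genes were lost, with HNRNPU at 35.8, 25.3, 25.8 and 16.1. These counts stand beside 5774 lost of 6065 such genes over all loci, so loss in nearly every such gene was the rule over all loci too.

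For termination factors, 13 of 24 had a peak in all 4 S9.6 libraries and all 13 were lost, CPSF1 among them (31.1, 21.7, 22.6 and 26.5), a subunit of the cleavage and polyadenylation complex. The lost genes included 11 of 20 aminoacyl-tRNA synthetase genes, which charge tRNAs, 11 of 23 genes of ATF4-driven amino acid supply, with ATF4 itself at 19.5, 14.1, 14.8 and 12.3, and 41 of 253 zinc finger genes of chromosome 19. In each of these 3 lists, no gene with a peak in all 4 S9.6 libraries had one after RNase.

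Genes widely used as DRIP controls followed the same course. Of 8 positive control genes 6 had a peak in all 4 S9.6 libraries and lost it, including CALM3 (17.7, 13.6, 20.3 and 17.8). ACTB (28.2, 0, 33.0 and 31.6) and ING3 (0, 4.76, 5.23 and 5.73) lacked a peak in 1 S9.6 library each, where 0 stands for no peak, and had none after RNase. Of 5 negative control genes HBB, MYOD1 and AFM had no peak in any of the 8 libraries. ZNF554 had one in all 4 S9.6 libraries (6.91, 4.87, 10.2 and 10.9) and SNRPN in 3, and neither had one after RNase.

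Among 30 R-loop factor genes 16 had a peak in all 4 S9.6 libraries, 15 were lost and 1 was kept. The lost ones include TOP3B (13.9, 13.3, 17.8 and 16.9), a topoisomerase that acts on RNA and DNA, and the helicase gene DHX9 (11.6, 8.95, 23.6 and 12.5). The kept gene is RTEL1, a helicase of telomere upkeep that lies near the end of chromosome 20. It had folds of 16.9, 18.3, 18.3 and 10.8 before and 0, 6.53, 21.4 and 16.4 after RNase. The higher RNase folds were those of replicates 3 and 4, and neither shScr RNase library had a peak at RTEL1. Of 18 genes of RNF8 signalling 6 had a peak in all 4 S9.6 libraries and all 6 were lost, UIMC1 among them (10.4, 8.43, 8.22 and 8.42), which encodes RAP80, a protein that binds ubiquitin chains at breaks. RNF168 was the 1 gene of this list with an RNase peak, and its values are given below. RNF8 itself had folds of 0, 0, 5.01 and 5.25 and XRN2 7.51, 0, 3.81 and 0, and neither had a peak after RNase.

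Nuclear-retained RNAs differed between the neighbours NEAT1 and MALAT1 on chromosome 11. MALAT1, a long noncoding RNA of nuclear speckles, had folds of 35.6, 17.9, 33.3 and 25.5 and no RNase peak. NEAT1, the scaffold of paraspeckles, had 60.5, 41.1, 94.9 and 72.5, and after RNase 0, 0, 5.88 and 4.79. It thus counts as kept, while its RNase values lie far below all 4 S9.6 values. Neither gene had a peak in the shScr RNase libraries.

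Counted at gene starts alone, few genes kept a peak. This window is smaller than the whole gene and leaves less room for an RNase peak. The count therefore does not show whether the loss was stronger at starts than elsewhere in genes. Of 2082 genes with a start peak in all 4 S9.6 libraries, 2061 had none in any RNase library (7.94% of all loci), 17 had one in 1 RNase library and 4 in 2. The 4 genes are DAND5, EEF1A1, HAR1A and MIR7114. At the start of DAND5 the folds were 5.56, 14.1, 8.96 and 7.33 before RNase, and 8.08 and 8.62 in RNase replicates 1 and 2. HAR1A, a noncoding RNA gene near the end of chromosome 20, had 10.6 and 8.64 at its start in RNase replicates 3 and 4. Genes with a start peak in 1 RNase library include MED16, a Mediator subunit, JOSD2, a deubiquitinase, and KDELR1, a receptor that returns proteins to the endoplasmic reticulum.

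None of the 18 genes kept in all 4 RNase libraries had a start peak after RNase. The 12 with the highest RNase fold are described here. Each value is the highest fold over the whole gene, so values before and after RNase can come from peaks at different places. LOC100507412, a noncoding gene on the short arm of chromosome 21 (chr21:8197620-8411091), had folds of 8.18, 5.40, 9.47 and 11.1 before and 15.2, 11.7, 31.2 and 26.2 after RNase. All 4 RNase values lay above all 4 S9.6 values. RPH3AL, an effector of Rab GTPases near the end of chromosome 17, had 9.75, 12.7, 7.89 and 6.85 before and 14.2, 17.1, 16.7 and 9.33 after RNase, and these overlapped. For PTPRN2, a receptor phosphatase of secretory vesicles, the values were 7.21, 5.65, 4.65 and 4.29 before and 6.12, 9.003, 14.5 and 9.05 after RNase.

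TMPRSS9, a membrane serine protease gene on chromosome 19, had 36.0, 23.1, 32.6 and 15.8 before and 5.69, 8.31, 46.9 and 18.1 after RNase. Replicates 3 and 4 were thus the high ones after RNase. These values come from more than 1 place. At chr19:2411581-2418243, which holds the RNase folds of 8.31, 46.9 and 18.1, overlapping S9.6 peaks had 24.0, 23.1, 11.1 and 15.8. EXD3 had 16.6, 15.7, 15.9 and 15.1 before and 11.2, 12.2, 26.8 and 13.2 after RNase, with only replicate 3 outside the S9.6 range upward. In the region that holds these RNase peaks (chr9:137350731-137360798), the S9.6 folds were 16.6, 15.7, 7.61 and 5.79, so there replicate 4 was also higher after RNase. LAMA5, a laminin subunit of basement membranes, had 14.2, 14.6, 36.3 and 30.8 before and 9.21, 11.3, 19.9 and 14.5 after RNase.

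MORN1, SLC38A10, TRPM2, PLXNA4, ADAP1 and ADPRHL1 had mean folds of 6.29 to 14.3 before and 10.1 to 13.0 after RNase. Each of the 12 also had an RNase peak in both shScr libraries. Of the 93 kept genes, 17 had a start peak after RNase, 16 had a higher mean fold after RNase than before, and 61 had an RNase peak in at least 1 shScr library, against 52 of the 5774 lost genes.

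The median RNA level of lost genes was higher than that of kept ones, with middle ranges (25th to 75th percentile) that overlapped, 2.75 to 27.5 and 0.459 to 14.7 RPKM. The median RNA level over the 3 shRNF8 RNA libraries was 10.6 RPKM for lost, 6.79 RPKM for kept-in-1 and 3.82 RPKM for kept genes, against 0.495 RPKM over all loci and 0.00747 RPKM for genes with no peak. The ratio of the medians of lost and kept genes was 2.78 (SD 0.0638 of the ratio over the 3 RNA libraries). Lost genes spanned a median of 23.6 kb and kept genes 54.1 kb. The part of length was not tested. These are descriptions of genes sorted by their peaks, with no test.

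The 5 kept regions with the highest RNase fold were of 2 kinds. On the short arm of chromosome 21, 3 neighbouring regions without a gene were called in all 12 DRIP libraries. Those at chr21:10703630-10732214 had folds of 13.5, 9.24, 7.03 and 8.195 before and 34.5, 38.5, 34.5 and 28.7 after RNase. Those at chr21:10682756-10692727 had 11.2, 9.24, 7.43 and 7.05 before and 44.9, 28.4, 29.7 and 28.2 after RNase, and at chr21:10732574-10740026 14.7, 4.62, 9.32 and 8.07 before and 32.7, 34.5, 31.9 and 29.6 after RNase. The RNase values were above the S9.6 values in every library. Of the 39 regions called in all 8 libraries, 11 had all RNase folds above all S9.6 folds, 2 the reverse, and 26 overlapped. As read here, a fold compares a pileup with the local background, each with a small constant added. The shared background was 0.698 to 1.48 reads before and 0.316 to 0.706 reads after RNase, and these ranges overlapped. Its part in these folds was not tested.

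The other kind is the pair of regions at RELA and EEF1A1, called after RNase only in shRNF8 replicates 3 and 4. At RELA, a subunit of the transcription factor NF-kB, RNase replicates 3 and 4 had a peak with folds of 344 and 973 (chr11:65654366-65655023). The S9.6 peaks that overlap this place had folds of 39.3, 24.0, 19.5 and 13.0. These are also the highest S9.6 folds of a merged region of 60474 bp over several genes, and their summits need not lie at this place. RELA was not among the 93 kept genes, which need a summit in the gene in all 4 S9.6 libraries. The RNase peak lay to 96.5% in exon sequence of RELA and ended 23 bp past the border of the gene's last exon. At the start of EEF1A1 (chr6:73520983-73521246) the folds were 8.19, 10.3, 5.76 and 4.33 before RNase and 52.4 and 146 in RNase replicates 3 and 4. This place was 12.5% exonic, so most of it lay outside exons. Its RNase peaks were 257 and 264 bp wide, and its S9.6 peaks 1760 to 2610 bp. RNase replicates 1 and 2 and both shScr RNase libraries had no peak at either place.

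RNF168 also had peaks of very high fold in RNase replicates 3 and 4, at 2 of its exons. In the exon at chr3:196468786-196472772 a peak of 976 bp (chr3:196471811-196472786) had folds of 150 and 369 in RNase replicates 3 and 4. The other libraries held 9.22 in RNase replicate 1, 6.31 in S9.6 replicate 3 and 5.62 in shScr RNase replicate 2, and no peak elsewhere. The peak was 98.6% exonic and ended 14 bp past the exon border. In the first exon, a peak of 327 bp (chr3:196502861-196503187) had folds of 73.5 and 119 in RNase replicates 3 and 4 and no counterpart in the other 10 DRIP libraries. It was 96.3% exonic, and its end lay 12 bp past the exon border.

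Across the 4 RNase lists, 8 places had a peak with a fold over 40. Those on chromosomes 10 and 20 and at TMPRSS9 passed this level in RNase replicate 3 or 4 alone or in both, and the one on chromosome 21 in replicate 1. What sets RNase libraries 3 and 4 apart was not tested.

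**Figure D5:**
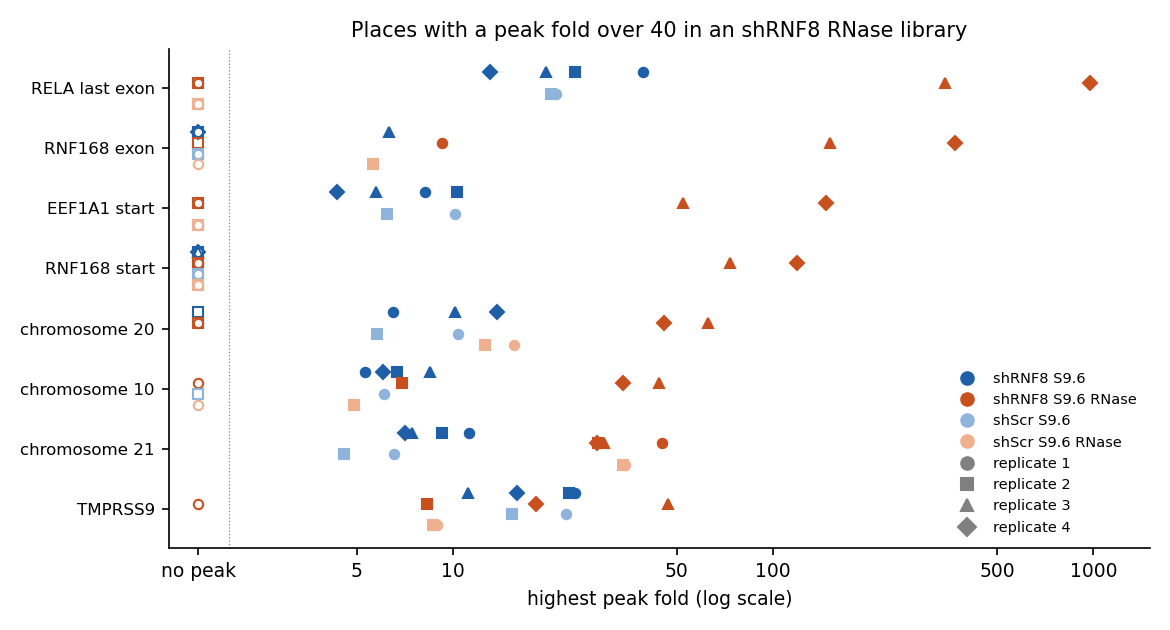
Highest peak fold on a log axis in each of the 12 DRIP libraries at the 8 places where an shRNF8 RNase library had a fold over 40. A value is the highest fold of any peak that overlaps the place, also where its summit lies outside. Open symbols at the left are libraries without a peak. At RELA, EEF1A1 and the start of RNF168 the only RNase symbols with a value are shRNF8 replicates 3 and 4.

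Regions found only after RNase lay mostly far from genes. Apart from RNF168, those of the highest fold were on the short arm of chromosome 21 (chr21:9246082-9246466; folds 10.6, 11.1, 23.4 and 13.6), on chromosome 20 (chr20:31058855-31059658; 0, 0, 25.2 and 21.0) and on chromosome 4 (chr4:182829217-182831843; 7.59, 12.5, 12.9 and 9.26, and chr4:49118963-49119608; 10.6, 10.4, 11.5 and 9.06). The nearest gene was TENM3, 26192 bp from the region at 182829217, and it lay farther off for the other 3. The one on chromosome 20 had no peak in the shScr RNase libraries, and the other 3 had one in at least 1 of them.

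RNase peaks clustered in a few 1-Mb windows. Between 26 and 27 Mb of chromosome 17, beside the centromere, RNase replicates 1 to 4 held 40, 34, 42 and 37 peaks, while S9.6 replicates 1 to 4 held 1, 0, 0 and 0. The window held 15.7, 8.11, 2.197 and 5.35% of all peaks of the 4 RNase lists. Between 49 and 50 Mb of chromosome 4 the RNase lists held 5, 6, 10 and 6 peaks and the S9.6 lists 0, 0, 0 and 1. Between 10 and 11 Mb of chromosome 21 they held 14, 20, 10 and 17 against 19, 27, 32 and 30. In the chromosome 17 window the 4 RNase counts were near each other, although RNase list 3 was far longer than list 1.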

How the data were processed

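The series holds 21 samples, of which 12 DRIP and 6 RNA libraries were used here. Groups and replicate numbers came from the sample titles. The gene groups, their members and the comparisons were chosen with earlier results of these data known. The 3 inputs were not used here, and how they entered the peak calls is not stated. Each deposited peak list is of 1 library and gives a fold (linear ratio) over local background and −log10 p and q values for each peak. The authors also deposited a table of raw fragment counts per gene that featureCounts made, per the file headers. Tools named, per the submitters' processing notes, are Trim Galore 0.6.6, Bowtie2 2.2.6, STAR 2.7.9a, SAMtools 1.14, Picard 2.10.9, MACS2 2.2.7.1, deepTools 3.5.1 and Subread 2.0.1, with build hg38 and no roles given. In shRNF8 lists 3 and 4 the peak names begin as in lists 1 and 2, though the peaks are others.

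From these, pileups were recovered (whole numbers that return −log10 p within 0.002 for 99.1 to 100% of peaks), and the lowest background that 5 peaks share within 1% gave the depth. Counts (18121181 to 20006954 per RNA library) were turned into TMM-scaled RPKM with edgeR 4.0.16 in R 4.3.3. Other steps used Python 3.11.15, pandas 2.3.3, NumPy 2.4.6, matplotlib 3.10.9 and SciPy 1.17.1. Of 26485 genes, 25963 were used, after genes with several loci or outside these chromosomes were left out. Groups of libraries were compared by exact permutation, and the code was tested on simulated peak lists. Regions, counts and lists carry no test.

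Same-numbered S9.6 and RNase libraries deviated together: over the 39 regions called in all 8 libraries, the correlation of their deviations from the group means was 0.195, 0.333, 0.141 and 0.455 for numbers 1 to 4, so the numbers were taken as pairs for the second fit. Numbers 1 and 2 resembled each other in the same way (0.211 and 0.310), as did 3 and 4 (0.255 and 0.381). These values therefore do not single out libraries of the same number.

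Named genes were the 12 kept genes with the most RNase libraries, then the highest RNase fold, the 12 lost genes with the highest start fold, up to 4 members of each group, RNF8, XRN2 and the control genes, and 1 lost gene and 1 control gene are not reported here. Named regions were the 5 with the highest fold of each kind. NEAT1, MALAT1 and the genes with a start peak after RNase follow from these rules or from their small number. The places with a fold over 40 and HNRNPF were chosen after their values were seen. Alternatives were a stricter q value, all scaffolds, leaving out each library, other overlap and window rules, shortened lists, the paired fit and matched depth.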

Additional observations from a re-analysis of the deposited data

Results flagged for a closer look

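The values of 166 groups of 4 libraries were checked for 1 library far from the other 3, as the gap to its neighbour over the whole range, against Dixon's 95% critical value. This was passed in 8 groups. Genes and regions can share a peak, as EXD3 and EIF4A1 do with their regions, so the groups are not separate and their number cannot be set against chance. After RNase the fold of EXD3 and of its region (chr9:137350731-137360798) passed with 0.869, with replicate 3 high at 26.8, and that of the chromosome 21 region at 10682756 with 0.913, with replicate 1 high at 44.9. Before RNase the fold of EIF4A1 and of its region passed with 0.830 (replicate 1 at 76.1), that of CCDC85B with 0.866 (replicate 1 at 52.6), that of an ADAP1 region (chr7:906836-909116) with 0.936 (replicate 2 at 12.9) and that of an RPH3AL region (chr17:320241-324539) with 0.830 (replicate 3 at 7.38).

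Peaks outside chromosomes 1 to 22 and X were not part of the comparisons. They made up 26.4, 16.7, 5.49 and 14.7% of the RNase lists (mean 15.8%) and 0.12, 0.0996, 0.123 and 0.134% of the S9.6 lists (exact permutation p = 0.0286, 4 against 4 libraries). In number they were 34 to 65 in the S9.6 lists and 84 to 119 in the RNase lists, so they did not fall with RNase as the other peaks did. The shScr RNase lists held 11.5 and 12.03% of such peaks.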

How the results depend on the processing

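The 19 library, region and gene results were recomputed under 228 alternatives. In 170 they kept their direction and side of 0.05 or, for counts, a value within 1.5 times, and 5 reversed. For shares without a test and the RNA ratio, a change of less than 1 SD over pairs or RNA libraries counted as the same. With the replicate block, in which libraries of 1 number are paired, all 9 tested results kept their values and reached the exact permutation p of 0.125, the smallest possible: 50.6-fold for peaks, 79.1-fold for covered length, -147 bp for width, 1.78 for fold, and -10.5, -11.2, -4.68, -19.5 and 45.9 percentage points for gene starts, gene ends, exons, introns and intergenic sequence. With all scaffolds the width difference was -128.5 bp (exact p = 0.0571). With equal list lengths the fold difference reversed to -15.1 and that of introns to 8.66 points, since the alternative takes the strongest S9.6 peaks alone.

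With −log10 q of at least 5, 39.8% of RNase peaks met an S9.6 peak, 6149 regions were lost, and 74 regions and 46 genes were kept. With summits within 300 bp these were 20.9%, 2803 and 27 regions, and the difference of that share between hairpins reversed to -0.312 points. Against any library of the other treatment 1.67% of S9.6 peaks were kept and 58.2% of RNase peaks met one. The kept share's difference between hairpins then reversed to 0.596 points (exact permutation p = 0.133). That setting pools 4 lists for shRNF8 but 2 for shScr cells, and a share can only rise with the lists pooled. Its sign therefore does not compare the hairpins. Requiring 1 RNase library kept 335 regions and 291 genes, and requiring 4 kept 39 and 18. At gene starts alone 2061 genes were lost and 4 kept. Among genes with at least 10 counts in all 3 RNA libraries the RNA ratio was 2.40.

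Matched depth and RNase libraries 1 and 2 alone were added after the data were seen. Matched depth gave -7.56 points for introns (exact p = 0.0571), a kept share of 1.15%, 19.6% of RNase peaks at an S9.6 peak, 1438 lost and 27 kept regions, and 1116 lost and 18 kept genes. RNase libraries 1 and 2 alone gave 48 kept regions, 43 regions found after RNase alone and 20 kept genes. The cause of these shifts was not tested.

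Leaving out 1 library at a time gave 41.2 to 91.2-fold for peaks, 63.9 to 146-fold for covered length, -171 to -132 bp for width (exact p = 0.0571 without any RNase library), 1.58 to 2.06 for fold and -22.7 to -16.3 points for introns (both 0.0571 without S9.6 library 2, 3 or 4, and introns also without 1). Gene starts gave -11.4 to -9.48, gene ends -12.1 to -10.1, exons -5.25 to -3.91 and intergenic sequence 41.3 to 50.3 points. Kept regions ranged from 68 to 148, regions found after RNase alone from 76 to 201, kept genes from 43 to 99, lost regions from 9268 to 12221 and lost genes from 5778 to 6704, the low kept counts being those without RNase library 3 or 4 (for genes 43 and 58). The kept share was 0.510 to 0.806%, and its difference between hairpins -0.309 to -0.0136 points. RNase peaks at an S9.6 peak were 42.7 to 46.4%, with a difference between hairpins of -1.01 to 2.67 points that reversed without replicate 2 (-1.01). GC content at summits was not run, as no genome was used here. Promoter sequences matched 73.3% of the 2061 genes lost at the start, so a check of their composition would be void. A peak missing after RNase may lie under the calling threshold of a shallower library.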

Other observations

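A peak in all 4 S9.6 libraries was found at 23.4% of all loci. Among 456 snRNA and snoRNA genes 14 had a peak in all 4 S9.6 libraries, among 67 replication histone genes 2, and among 378 olfactory receptor genes 1, and all of these were lost after RNase. Any S9.6 peak was seen at all but 347, 56 and 375 of these genes. Of 27 snoRNA host genes 5 had a peak in all 4 S9.6 libraries (18.5%) and were lost. The 10 nuclear copies of mitochondrial sequence and the ribosomal RNA gene had none in all 4. Of 16 collagen genes 6 had one, 5 were lost, and COL5A1 (8.44, 8.89, 16.8 and 11.96 before RNase) had a fold of 5.57 in RNase replicate 3 and of 6.86 and 7.51 in the shScr RNase libraries. In all, 2 collagen genes had an RNase peak in shRNF8 cells, 1 of them with no S9.6 peak. Of 10 basal and 10 luminal marker genes 5 and 3 had such a peak, and all were lost.

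Other windows rich in RNase peaks differed in their S9.6 counts. In the first Mb of chromosome 7, RNase replicates 1 to 4 held 10, 10, 20 and 11 peaks and S9.6 replicates 106, 116, 139 and 123. Between 21 and 22 Mb of chromosome 17 the RNase counts were 8, 8, 58 and 45 and the S9.6 counts 24, 22, 29 and 34. Between 89 and 90 Mb of chromosome 2 they were 7, 8, 23 and 32 against 0, 0, 9 and 12. In the last 2 windows replicates 3 and 4 were the high ones after RNase.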
